A study of Mus musculus with 2 samples.

Results

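Desmosomes, gap junctions and tight junctions are built from a set of gene families that was chosen here by gene symbol, not by measured values. The set holds the desmogleins (Dsg), desmocollins (Dsc), plakophilins (Pkp), claudins (Cldn), the alpha, beta and gamma connexins (Gja, Gjb and Gjc) and the zonula occludens genes (Tjp). Dsp, Jup, Ppl, Evpl, Perp, Cdsn, Ocln and F11r complete it. It comprised 73 of the 31053 features in the count tables, namely 33 claudins, 16 connexins, 9 desmosomal cadherins, 10 genes of the desmosomal plaque and cornified envelope, and 5 other tight junction genes. Of the 73, 59 had a UMI (a counted transcript molecule) in the cells kept, 48 had 20 or more over both libraries, and 14 had none. The 25 members under that count comprised 19 claudins, 5 connexins and the desmoglein Dsg4.

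Droplet single-cell RNA libraries had been made from full-thickness back skin of 1 wild-type mouse (WT) and 1 mouse with the genotype Card14 KI +/+ (Card14KI), both C57BL/6 and 12 months old. CARD14 is a scaffold protein of keratinocytes that links upstream signals to NF-kB. The labels give no further allele, promoter or treatment for either animal, and name no cell type in which the knock-in acts. With 1 animal per genotype, genotype, animal and library cannot be told apart, and no test between them was possible.

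Desmosomes anchor keratin filaments at cell contacts: desmogleins and desmocollins cross the gap between cells, and plakoglobin (Jup), plakophilins and desmoplakin (Dsp) tie them to the filaments. Gap junctions are channels of connexins that pass ions and small molecules from cell to cell. Tight junctions seal the space between cells with claudins and occludin, which the zonula occludens proteins hold from inside, and in skin they function in the granular layer. As keratinocytes leave the basal layer, the desmosomal cadherins and connexins they express are exchanged for others, and corneodesmosin (Cdsn) is added to desmosomes near the surface.

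After filtering, 4161 of 5016 WT barcodes and 2835 of 3348 Card14KI barcodes were kept. Median depth was 7344 and 6875 UMIs, and 2 barcodes occurred in both libraries. Cells were assigned to classes by fixed marker genes, none of them a junction gene of the set. The basal gate held 163 WT and 147 Card14KI cells, the spinous gate 154 and 353, and the granular gate 87 and 119. Inner root sheath cells numbered 158 in WT and 1 in Card14KI, and outer root sheath or bulge cells 34 and 0. The cells of both classes were thus nearly all from the WT animal. For each class the UMIs of its cells were added up and are given as CPM (UMIs relative to the total of that class), with 95% intervals that cover counting error only. Where few cells carry most UMIs of a gene, its true spread is wider than the interval. A gene was counted as measured in a comparison with 20 or more UMIs in all, and as higher or lower when the CPM ratio was 1.5-fold or more and its interval left out 1. The kit counts 3′ ends, so CPM carries no gene length term. Reads of the near-identical genes Dsg1a, Dsg1b and Dsg1c, and of the Cldn34 genes, can be split or lost, and their values are uncertain.

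The basal gate was mixed. By clusters made without junction genes, 27 WT and 70 Card14KI cells of it were called interfollicular. Another 72 and 57 were placed next to sebocytes, 15 and 16 next to the upper hair follicle, and 48 and 4 next to the outer root sheath. The cluster called interfollicular was the one with the highest mean basal marker score. No marker specific to interfollicular cells was used, so the name was not tested. The other clusters were named by the highest of their sebocyte, upper hair follicle and outer root sheath scores. The epidermis was therefore followed in 5 stages, of which the first was the interfollicular basal cells (27 WT and 70 Card14KI). Then came early spinous (90 and 214), late spinous (64 and 139), granular (56 and 93) and late granular cells (31 and 26). These later stages divide the whole spinous and granular gates, which were not narrowed to interfollicular cells by cluster. The first step thus compares a selected part of a gate with cells of a whole gate. Spinous and granular cells were placed by the mean log level of granular markers such as Flg, Lor and Ivl. The basal marker score fell from 2.54 in WT and 2.52 in Card14KI at the first stage to 0.0163 and 0.0284 at the last, while the granular score went from 0.0542 and 0.0782 to 3.24 and 3.21.

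Most junction genes rose on leaving the basal layer, reached their highest level in late spinous cells and were lower again at the top. From interfollicular basal to early spinous cells, 14 of 25 measured junction genes were higher in both libraries, against 5.61% of all measured genes, and Dsg3 alone was lower in both (3.91% of all genes). From early to late spinous cells 15 of 28 were higher in both (13.1% of all genes) and 4 were lower (17.6%). From late spinous to granular cells Cldn23 alone of 27 was higher (9.0% of all genes) and 10 were lower (23.1%), and from granular to late granular cells 0 of 26 were higher (6.25%) and 20 were lower (38.1%). Of the 29 junction genes with 20 or more UMIs over the stages in each library, 26 had their highest level at the same stage in both animals. Over all 29, the late spinous stage was the highest for 20 genes in WT and for 17 in Card14KI. Peak stages were not computed for all genes, so these counts cannot be read as particular to junction genes. Over whole gates, 21 of 30 measured junction genes were higher in spinous than in basal cells of both libraries (11.6% of all genes), and 2 were lower (21.9%). From spinous to granular cells 3 of 29, Cldn23, Ppl and Cdsn, were higher (10.7%). Another 12 of the 29, or 41.4%, were lower, near the 44.9% of all genes. Over whole gates the fall at the top was thus not particular to junction genes.

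**Figure D1:**
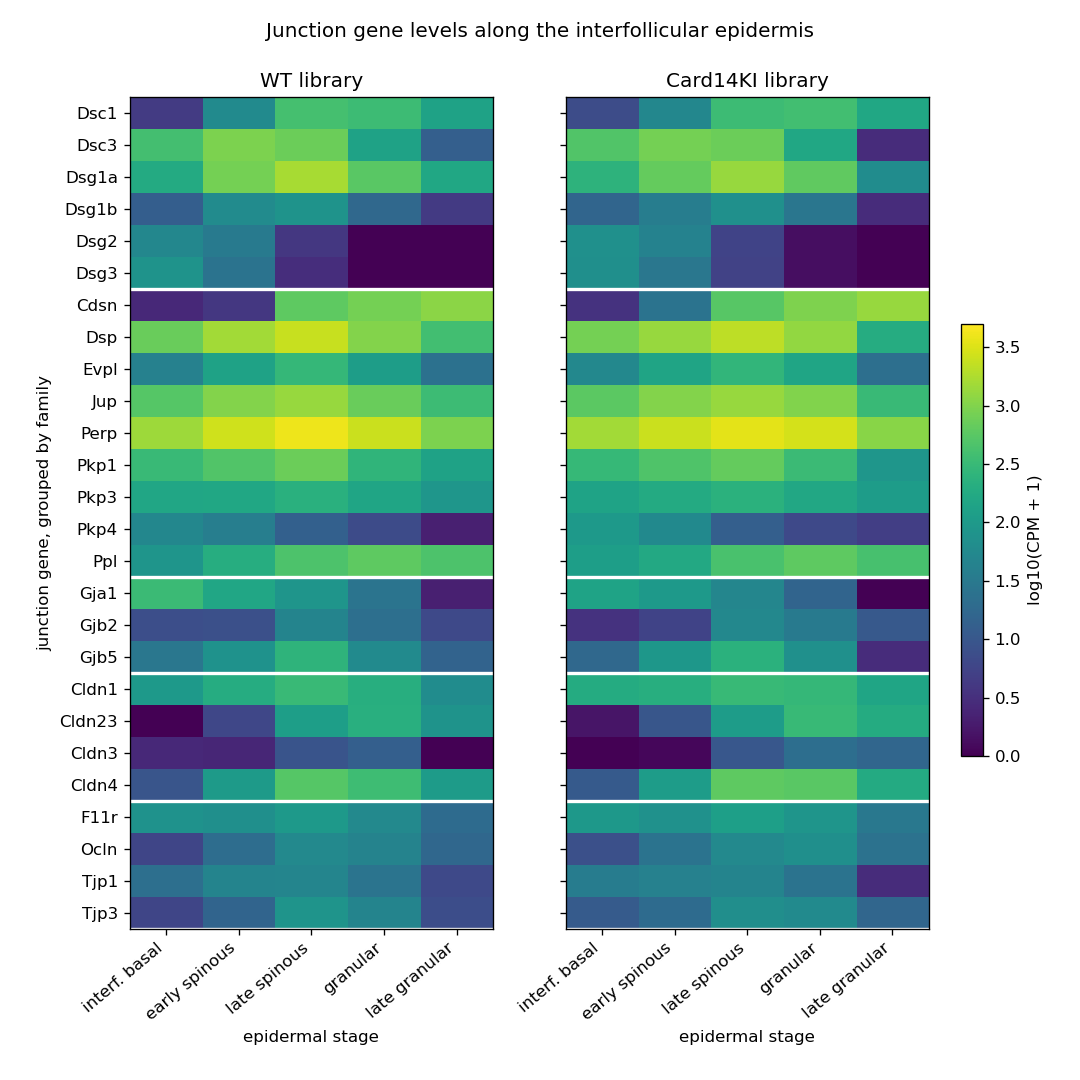
Heat maps of junction gene levels, as log10(CPM + 1), in 5 stages of the epidermis, WT on the left and Card14KI on the right. Only the first stage was narrowed to interfollicular cells by cluster. Rows are 26 of the genes with 20 or more UMIs in each library, grouped by family with white lines between families. Of the genes drawn, 24 were highest at the same stage in both libraries.

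The balance of the desmosomal cadherins changed along the stages in both animals. Dsg3, the desmoglein of the lower epidermis, was at 79.8 CPM in WT against 68.1 CPM in Card14KI interfollicular basal cells, 24.3 and 28.8 in early spinous, 2.01 and 4.36 in late spinous, and 0 and 0.376 in granular cells. Dsg2, another desmoglein of less differentiated cells, went from 49.9 and 71.8 CPM in basal cells to 32.4 and 42.7 and then to 3.01 and 4.64 in late spinous cells. Both were thus highest at the first stage and near 0 from the granular stage on. Dsc3, a desmocollin of the lower layers, was highest in early spinous cells, at 931 CPM in WT against 843 CPM in Card14KI, and was at 133 and 160.1 CPM in granular cells. Dsg1a, a copy of desmoglein 1, which predominates in upper layers, rose from 183 and 246 CPM in basal cells to 1653 and 1341 CPM in late spinous cells and was at 159 and 62.7 CPM in late granular cells. Dsc1, the desmocollin of the upper layers, was at 3.32 and 6.30 CPM in basal cells, 57.2 and 50.6 in early spinous, 408 and 337 in late spinous, and 346 and 378 in granular cells. Dsg3 and Dsg2 therefore left the profile as Dsc1 came in. Dsg1a was already above both in basal cells and rose further. Dsg1b followed Dsg1a with a peak of 79.8 CPM in WT against 70.6 CPM in Card14KI late spinous cells, although the copies cannot be fully separated. Dsc2 had 144 WT and 92 Card14KI UMIs over all kept cells, Dsg1c 14 and 13, and Dsg4 10 and 0.

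Among plaque and envelope genes, Pkp4 ran opposite to the rest. Perp, a membrane protein of desmosomes, was at 1461 CPM in WT against 1531 CPM in Card14KI interfollicular basal cells, 4024 and 3493 in late spinous, and 918 and 1111 in late granular cells. Dsp, the link to keratin filaments, rose from 715 and 850.02 CPM in basal cells to 2474 and 2175 in late spinous cells and was at 384 and 196 CPM at the last stage. Jup, plakoglobin, went from 527 and 582 CPM to 1365 and 1339 and then to 339 and 325 CPM. These abundant components had the same course in both libraries. Pkp1, the plakophilin of stratified epithelia, had its peak of 727 CPM in WT against 668 CPM in Card14KI late spinous cells, and Pkp3 its peak of 224 and 226 CPM there. Pkp4, a relative of p120 catenin found also outside desmosomes, was highest in basal cells, at 49.9 CPM in WT against 96.4 CPM in Card14KI, and was at 12.5 and 12.3 CPM in late spinous cells. Evpl and Ppl encode envoplakin and periplakin, which join desmosomes to the cornified envelope. Evpl was highest in late spinous cells, at 291 and 276 CPM, and Ppl one stage later, at 600.5 and 608 CPM. Cdsn was the latest of all: it was at 1.66 and 2.52 CPM in basal cells, 610.004 and 551 in late spinous, 837 and 950 in granular, and 1154 and 1326 CPM in late granular cells.

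Among the connexins, Gja1 was early and Gjb5 and Gjb2 were late. Gja1, connexin 43, was highest in interfollicular basal cells, at 327 CPM in WT against 137 CPM in Card14KI, and went down at each stage, to 154 and 97.4, 85.3 and 48.5, and 25.4 and 14.7 CPM in granular cells. Gjb5, connexin 31.1, was highest in late spinous cells. It was at 28.3 and 17.01 CPM in basal and 250.3 and 233 CPM in late spinous cells, and at 14.3 and 1.96 CPM at the last stage. Gjb2, connexin 26, was low throughout, with its highest stage level at 45.1 CPM in WT against 52.9 CPM in Card14KI late spinous cells.

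Most claudins and other tight junction genes were highest in late spinous or granular cells. Cldn1, the claudin needed for the skin's water barrier, was at 98.1 CPM in WT against 188 CPM in Card14KI basal cells, 316 and 310 in late spinous, and 207 and 288 in granular cells. Cldn4 was at 8.31 and 10.1 CPM in basal cells, 103 and 111 in early spinous, and 537 and 599 in late spinous cells, a rise from basal cells of 64.6-fold in WT and 59.4-fold in Card14KI. Cldn23 came later: it was at 0 and 0.630 CPM in basal, 116 and 112 in late spinous, and 215 and 315 CPM in granular cells. Cldn3 was also highest in granular cells, at 12.1 and 20.7 CPM. Cldn1 was thus present from the basal layer, while Cldn4 was low there and Cldn23 low until the late spinous stage. Ocln, occludin, went from 4.99 and 6.93 CPM in basal to 54.2 and 53.99 in late spinous cells. Tjp3 had a similar course, from 4.99 and 10.7 to 82.3 and 67.4 CPM. Tjp1, which encodes a zonula occludens protein, varied less, between 21.6 and 46.7 CPM in WT before the last stage. F11r, the junctional adhesion molecule JAM-A, was at 74.8 and 92.6 CPM in basal and 98.8 and 120.2 CPM in late spinous cells.

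**Figure D2:**
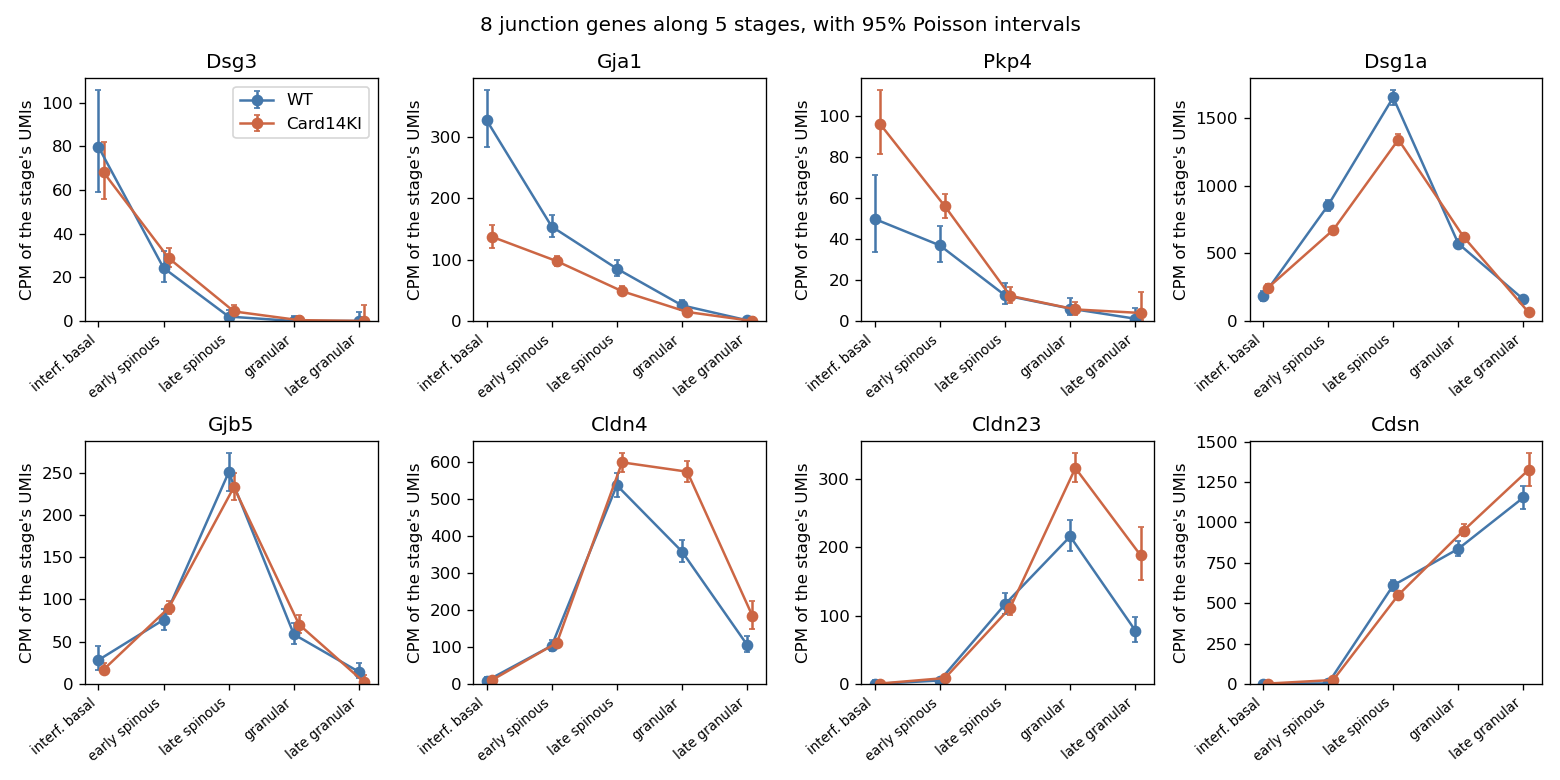
CPM of 8 junction genes (vertical axis, from 0) at 5 stages of the epidermis (horizontal axis), in WT (blue) and Card14KI (orange), with 95% Poisson intervals as bars. Dsg3, Gja1 and Pkp4 were highest in basal cells, Dsg1a and Gjb5 in late spinous cells, Cldn23 in granular and Cdsn in late granular cells; Gja1 was lower in Card14KI at the first 4 stages.

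Promoter sequence is shown for Gja1 and Cldn4, the connexin and the claudin with opposite courses along the stages, and both with a difference between the libraries. The sequences are the 250 bases upstream of the RefSeq start site (GRCm38.p6), 5′ to 3′ on the gene's strand. Of the 73 junction genes, 44 had an entry. Capitals mark matches, on either strand, to the letters TGANTCA (an AP-1 type motif), AACCNGTT (a grainyhead type motif), CCACACCC (a KLF type motif) or TATAAA; no matches overlap. Gja1 lies at chr10:56377050-56377299 on the plus strand and Cldn4 at chr5:134946935-134947184 on the minus strand.
Gja1: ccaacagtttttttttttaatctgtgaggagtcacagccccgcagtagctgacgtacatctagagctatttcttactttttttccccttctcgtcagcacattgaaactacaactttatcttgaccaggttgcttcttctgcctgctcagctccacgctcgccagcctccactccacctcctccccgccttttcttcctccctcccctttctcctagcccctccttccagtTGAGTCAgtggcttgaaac
Cldn4: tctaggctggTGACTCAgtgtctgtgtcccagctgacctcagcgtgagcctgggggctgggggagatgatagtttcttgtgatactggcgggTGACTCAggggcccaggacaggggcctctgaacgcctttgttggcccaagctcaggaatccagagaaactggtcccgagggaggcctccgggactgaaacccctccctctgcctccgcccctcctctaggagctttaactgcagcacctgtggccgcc
Gja1 held 1 AP-1 type match, at positions -19 to -13 from the start site, and Cldn4 held 2, at -240 to -234 and -158 to -152. Over all 32851 upstream windows of this length, 6.75% held an AP-1 type match, 1.79% a grainyhead type, 3.20% a KLF type and 12.4% the TATAAA letters. Among the 60 windows of junction genes the shares were 11.7%, 3.33%, 1.67% and 10%, or 7, 2, 1 and 6 windows. A match describes the letters only.

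In interfollicular basal cells, Gja1 was the junction gene that was lower in Card14KI, and 3, Pkp4 and Cldn1 among them, were higher. Gja1 stood at 327 CPM in WT (197 UMIs, 77.8% of 27 cells with a UMI) and at 137 CPM in Card14KI (218 UMIs, 61.4% of 70 cells), 2.38-fold lower in Card14KI (1.96 to 2.90). Of 22 measured junction genes 3 were higher, against 8.5% of all measured genes, and 1 was lower, against 5.12%. The median log2 ratio of CPM + 1 was 0.31 over the junction genes and 0.07 over all genes. Pkp4 was at 49.9 CPM in WT against 96.4 CPM in Card14KI, 1.93-fold higher (1.30 to 2.96). Cldn1 was at 98.1 and 188 CPM, 1.92-fold higher (1.45 to 2.58). The largest plaque genes did not pass the fold: Perp was at 1461 and 1531 CPM, with a ratio of 1.05 (0.970 to 1.13), and Jup at 527 and 582 CPM, with a ratio of 1.10 (0.970 to 1.26).

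The lower Gja1 level in Card14KI recurred at later stages. Among early spinous cells Pkp4 and Cdsn of 29 measured genes were higher (4.63% of all genes) and 3, Gja1 and Dsg1b among them, were lower (3.53%); among late spinous cells 0 of 29 were higher (4.95%) and Gja1 alone was lower (4.05%). Early spinous cells held 154 CPM in WT against 97.4 CPM in Card14KI, 1.58-fold lower (1.37 to 1.81). Late spinous cells held 85.3 and 48.5 CPM, 1.76-fold lower (1.42 to 2.18), and granular cells 25.4 and 14.7 CPM, 1.73-fold lower (1.09 to 2.75). In sebocytes (358 and 321 CPM) and fibroblasts (310 and 328 CPM) Gja1 did not pass the fold, with ratios of 0.897 and 1.06. Lymphatic endothelial cells had 278 and 255 CPM. T or innate lymphocytes, with little Gja1, had 15.6 CPM in WT against 7.94 CPM in Card14KI, a ratio whose interval held 1 (0.508, 0.124 to 1.56). The granular levels lie close to these, and the part of free RNA in them was not tested. The outer root sheath score of the interfollicular basal cells was 0.175 in WT and 0.0594 in Card14KI, and its part in the basal difference was not tested.

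Over the whole basal gate, 10 of 29 measured junction genes were higher in Card14KI (6.63% of all genes) and 5 lower (17.9%). The median log2 ratio was 0.24 against -0.21 over all genes. Scaling by the trimmed mean of log ratios, a shift of -0.20, gave 12 higher and 4 lower (10.5% and 11.1% of all genes). The makeup of the gate moved with these counts: without its outer root sheath part they were 9 and 3 of 28 measured (6.73% and 11.2% of all genes), and in interfollicular cells alone 3 and 1 of 22 (8.5% and 5.12%). Gja1 shows the size of this. It was at 701 CPM in the WT and 116 CPM in the Card14KI basal gate, 6.04-fold lower (5.35 to 6.84), and 1873 of the 2265 WT UMIs came from the 48 cells next to the outer root sheath. Dsg1a was at 56.4 and 159 CPM over the gate, a ratio of 2.83 (2.37 to 3.39), and at 183 and 246 CPM in its interfollicular cells, a ratio of 1.35 (1.09 to 1.68). Pkp1 was at 149.6 and 230.02 CPM over the gate. In interfollicular cells it was at 321 and 302 CPM, a log2 ratio of -0.088, and did not pass the fold.

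In spinous cells few junction genes passed the fold. Of 32 measured junction genes 3 were higher in Card14KI (7.03% of all genes) and 2 were lower (4.27%). The median log2 ratio was -0.16 against 0.02 over all genes. The 3 higher genes are among the 4 whose highest stage was interfollicular basal. The other of the 4, Gja1, went the opposite way. It was lower in Card14KI in early (154 and 97.4 CPM) and late spinous cells (85.3 and 48.5 CPM). With the same weights of score bins in both libraries, none of the 3 higher calls was kept. Pkp4 was at 24.7 CPM in WT against 40.2 CPM in Card14KI, 1.63-fold higher (1.30 to 2.05), Dsg2 at 17.6 and 28.9 CPM, 1.64-fold (1.26 to 2.16), and Dsg3 at 13.1 and 19.9 CPM, 1.52-fold (1.12 to 2.11). The basal marker score moved with them: in early spinous cells it was 0.329 in WT and 0.761 in Card14KI. So did the share of cycling cells in the spinous gate, 5.19% (8 of 154) in WT and 14.2% (50 of 353) in Card14KI; the part of either was not tested. Among the lower genes, Dsc1 was at 233 and 154 CPM, 1.51-fold lower (1.39 to 1.64), a call at the edge of the fold that was kept under 3 of 13 alternatives. Gjb5, at 164 and 142 CPM and 1.15-fold lower, did not pass the fold.

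In granular cells the tight junction genes stood higher in the Card14KI library. Of 27 measured junction genes 11 were higher, against 17.4% of all measured genes, and 0 were lower, against 4.03%. The median log2 ratio was 0.44 over the junction genes and 0.27 over all genes, so the median gene of the layer was shifted upward too. CPM is relative to the class total, so this shift cannot be read as a rise of all transcripts. By family, all 4 measured claudins, F11r, Ocln and Tjp3 of the 5 other tight junction genes, Gjb2 of 5 connexins with a ratio, Dsc3 and Dsg1b of 4 desmosomal cadherins, and Evpl of 9 plaque and envelope genes were higher. Cldn4 was at 268 CPM in WT against 511 CPM in Card14KI, 1.91-fold higher (1.74 to 2.09). Cldn23 was at 167 and 295 CPM, 1.77-fold higher (1.58 to 1.99). Cldn1 was at 156 and 265 CPM, 1.70-fold (1.51 to 1.92), and Cldn3, with 20 and 63 UMIs, at 7.81 and 19.9 CPM, 2.55-fold (1.52 to 4.45). Ocln, at 33.95 and 60.9 CPM, was 1.79-fold higher (1.38 to 2.34). F11r, at 40.98 and 74.1 CPM, was 1.81-fold higher (1.43 to 2.30). Tight junction genes thus formed 7 of the 11. Evpl, the envelope gene among them, was at 81.2 and 126 CPM, 1.56-fold higher, a call kept under 5 of 13 alternatives. Gjb2, another of the 11, had a log2 ratio of 0.82 over the gate, with a call kept under 9 of 13. It was low, at 21.8 and 32.7 CPM at the granular stage alone. The ratio over the gate reversed with classes from clusters (-2.35), with cells thinned to 2000 UMIs (-1.31) and with a granular threshold of 2.5 (-0.69). Cdsn and Ppl did not pass the fold: Cdsn was at 949.5 and 1010.1 CPM, with a ratio of 1.06, and Ppl at 549.5 and 576.5 CPM, with a ratio of 1.05.

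These granular counts moved with the scaling and with where cells lay in the layer. Scaling by the trimmed mean of log ratios, which takes out a shift of 0.27, left 5 higher and 1 lower, with 6.56% of all genes higher and 7.84% lower. The late granular cells, those with a score of 3 or more, made up 35.6% of the WT and 21.8% of the Card14KI granular gate. With the same weights of score bins in both libraries, 4 of 27 were higher and 1 lower by the fold alone, beside 14.4% and 7.18% of all genes, so the share of higher junction genes was near that of all genes. Within the granular stage alone, 6 of 27 were higher (9.55% of all genes) and Gja1 was lower (3.64%). Cldn4 was at 358 and 574 CPM there (1.60-fold) and at 105 and 184 CPM in late granular cells (1.75-fold). Cldn23 was at 215 and 315 CPM (1.46-fold) and 77.99 and 188 CPM (2.41-fold). In late granular cells, 4 of 18 measured genes were higher, Cldn4, Cldn23 and Cldn1 among them (13.5% of all genes), and Pkp1, Dsp and Dsg1a were lower (5.28%). Neither Cldn4 nor Cldn23 differed past the fold in late spinous cells, where Cldn4 was at 537 and 599 CPM and Cldn23 at 116 and 112 CPM.

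**Figure D3:**
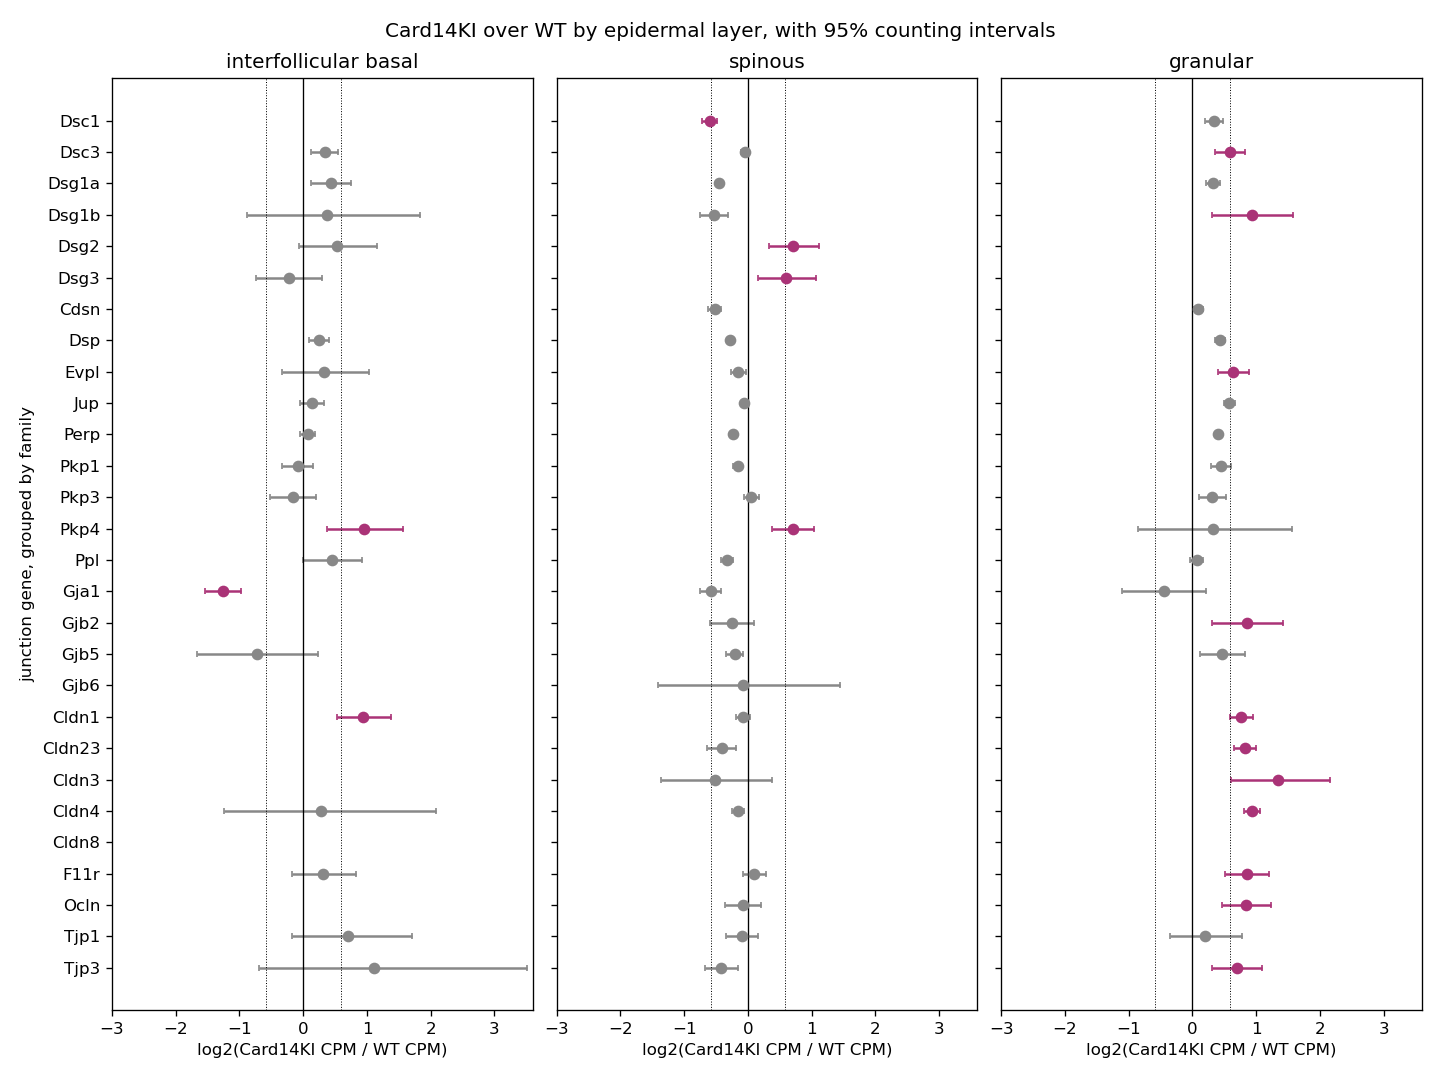
Log2 ratio of Card14KI over WT CPM (horizontal axis) for 28 junction genes named by rule (vertical axis, grouped by family) in interfollicular basal, spinous and granular cells, with 95% counting intervals; purple marks ratios of 1.5-fold or more (dotted lines) whose interval leaves out 1, and genes under 20 UMIs in a layer are not drawn. The 3 panels hold 2, 3 and 11 higher genes and 1, 1 and 0 lower genes.

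Several junction genes had most of their WT UMIs in hair follicle sheath cells, a class nearly confined to the WT library. Over all kept cells, Gjb2 had 9301 UMIs in WT and 388 in Card14KI, Gjb6 (connexin 30) 673 and 40, Cldn14 255 and 3, and Cldn3 707 and 187. The inner root sheath, the outer root sheath and the basal cells next to it held 98.8% of WT Cldn14, 79.01% of WT Gjb2, 74.9% of WT Gjb6, 68.9% of WT Cldn3 and 50.4% of WT Dsc1 UMIs. These were 5 of 45 junction genes with 20 or more WT UMIs, over which the median share was 22.9%. Such shares were not computed for all genes, so this count and median cannot be read as particular to junction genes. Dsc1 had 4401 UMIs in WT and 3372 in Card14KI over all kept cells, so most of its Card14KI UMIs lay elsewhere. In outer root sheath or bulge cells of WT, Perp was at 2458 CPM, Gjb2 at 1848, Gja1 at 1852, Cldn3 at 389 and Gjb6 at 114 CPM. In the WT inner root sheath, the layer that moulds the hair shaft, Perp was at 2184 CPM, Dsp at 1044, Gjb2 at 749, Gja1 at 601, Dsg1a at 519, Dsc1 at 418 and Cldn14 at 47.7 CPM. Cldn14 was thus an inner root sheath gene here, and Cldn3 was high in the outer sheath, with 11.4 CPM in the inner. Both sheaths had no counterpart in Card14KI of more than 1 cell, so no fold is given for them.

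Gjb2 and Gjb6 are neighbours on chromosome 14, on the same strand, with Gja3 beyond Gjb2, and Gja3 had 92 UMIs in WT and 0 in Card14KI. The upstream sequences of Gjb2 and Gjb6 are shown because these neighbours shared the follicle pattern. They lie at chr14:57104703-57104952 and chr14:57133612-57133861, minus strand, with capitals as for Gja1 and Cldn4.
Gjb2: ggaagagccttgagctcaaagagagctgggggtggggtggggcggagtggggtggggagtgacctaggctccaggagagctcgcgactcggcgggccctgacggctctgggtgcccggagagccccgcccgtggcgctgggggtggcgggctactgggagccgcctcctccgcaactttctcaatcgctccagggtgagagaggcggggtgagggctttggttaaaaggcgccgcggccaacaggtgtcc
Gjb6: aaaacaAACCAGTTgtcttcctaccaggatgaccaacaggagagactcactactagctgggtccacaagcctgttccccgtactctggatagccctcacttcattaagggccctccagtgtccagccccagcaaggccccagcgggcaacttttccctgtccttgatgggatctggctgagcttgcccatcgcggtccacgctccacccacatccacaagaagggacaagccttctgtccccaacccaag
The Gjb2 window held none of the 4 motifs and 69.2% G or C, and the Gjb6 window 1 grainyhead type match at -244 to -237 and 56.8% G or C.

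The follicle genes set the largest basal differences. In the basal gate Gjb2 had 1439 UMIs (446 CPM) in WT and 6 (2.36 CPM) in Card14KI, 189-fold lower (86.7 to 516), and 1382 of the WT UMIs were in the 48 cells next to the outer root sheath. Gjb6 had 154 and 0 UMIs there, at least 40.5-fold lower against a floor of 3 counts, with 144 of the 154 in those 48 cells. Interfollicular basal cells had 6.65 and 2.52 CPM of Gjb2. WT cells that should lack Gjb2 also held a little: fibroblasts had 6.85 CPM (2.81% of cells with a UMI, median depth 7231 UMIs) and T or innate lymphocytes 12.0 CPM (4.19%, median depth 3200 UMIs). In Card14KI, 0 of 1366 fibroblasts and 0 of 137 lymphocytes had one, which, at 3 counts of the total, allows shares of cells with a UMI of up to 0.220% and 2.19%. WT levels of Gjb2 of this size cannot be read as expression. In the upper hair follicle the most abundant members were Perp at 1761 and 1810.2 CPM, Dsp at 1558 and 1578 CPM and Jup at 704 and 720.5 CPM. Gjb2 was there at 26.8 and 3.06 CPM, with a ratio of 0.114. Of 31 junction genes measured there, Gjb5 and Cdsn were higher (5.02% of all genes) and 3, Gjb2 and Gjb6 among them, were lower (8.21%). Cdsn was at 46.1 and 98.3 CPM.

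**Figure D4:**
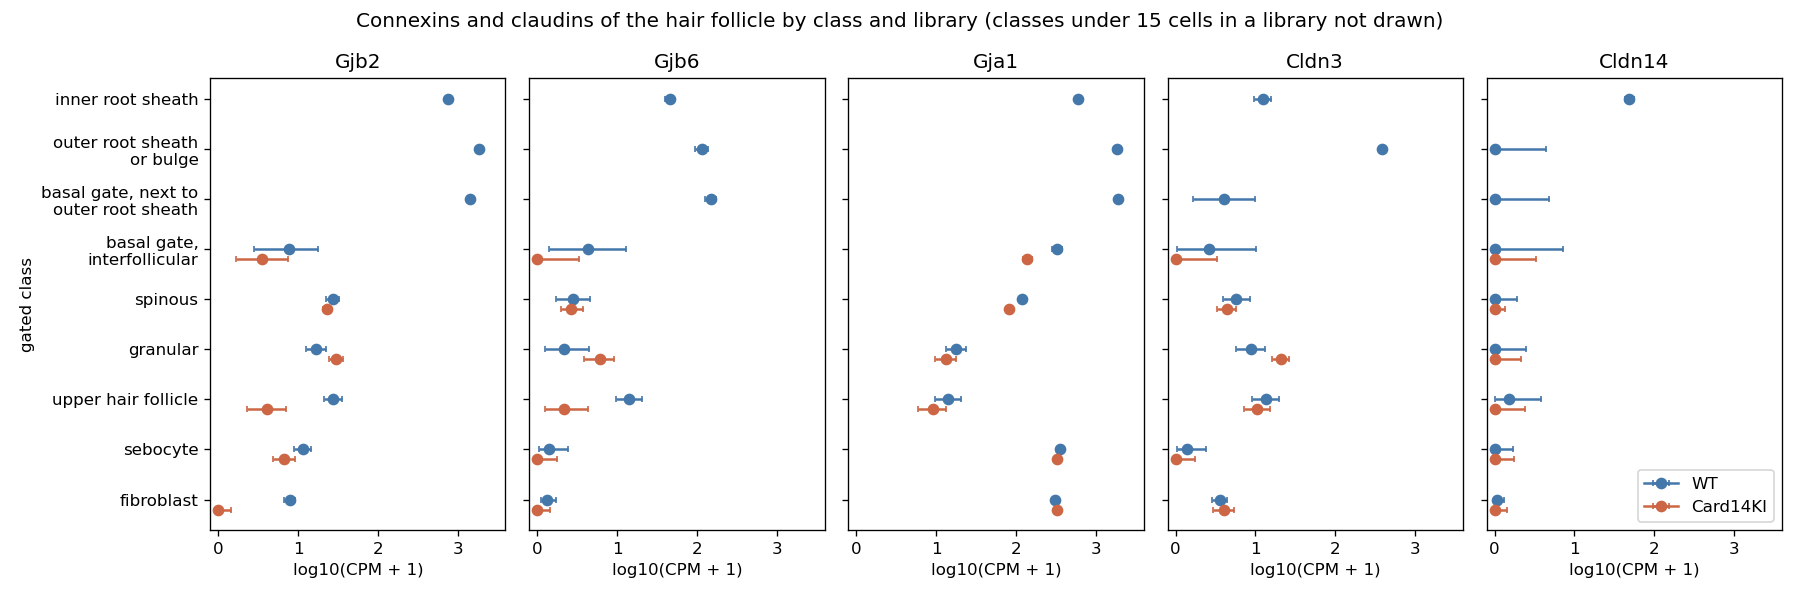
Levels of Gjb2, Gjb6, Gja1, Cldn3 and Cldn14 as log10(CPM + 1) (horizontal axis) by class (vertical axis), WT in blue and Card14KI in orange, with 95% Poisson intervals; classes under 15 cells in a library are not drawn, which leaves the follicle sheaths with WT points alone. Gjb2 and Gja1 are highest in the outer root sheath (1848 and 1852 CPM) and the basal cells next to it (1417 and 1920.3 CPM).

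The most abundant members of sebocytes were also abundant in the epidermis, while fibroblasts had Cldn10 among their highest. In sebocytes, the lipid-filled cells of the sebaceous gland, Perp was at 969 CPM in WT against 1006 CPM in Card14KI, Gja1 at 358 and 321, and Dsc3 at 152 and 205 CPM. Of 30 junction genes measured there, Cdsn, Dsc1 and Dsg1a were higher (3.78% of all genes) and Gjb2, Pkp2 and Cldn8 lower (5.1%). The part of free RNA in the sebocyte levels of these genes was not tested. Fibroblasts had Gja1 at 310 and 328 CPM, Cldn10 at 54.6 and 63.2 CPM and Tjp1 at 42.1 and 47.3 CPM, and most other members at low levels. Ppl was the only one of 30 measured there that was higher, at 20.6 and 35.02 CPM (5.89% of all genes), and Pkp4, Cldn34c1, Cldn11 and Gjb2 were lower (12.4%). Cldn11 was at 10.4 and 3.62 CPM.

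Lymphatic endothelial cells were marked by Cldn5, the claudin of endothelium. It was at 2850.1 CPM in WT (77 cells) and 2114 CPM in Card14KI (51 cells), a ratio of 0.742 (0.698 to 0.788), with a UMI in 100% of cells of both. F11r followed at 355 and 313 CPM and Jup at 297 and 241 CPM. Of 12 junction genes measured there, 0 were higher (3.63% of all genes) and 0 lower (8.32%). Blood endothelium, 8 and 12 cells, held Cldn5 at 1150.4 and 1391 CPM, and in Card14KI Gja1 at 417 and Tjp1 at 239.7 CPM. Immune cells held few junction genes. Pkp3 was at 112 and 117 CPM in T or innate lymphocytes, detected in 29.7% and 32.8% of the cells. Dsp at 45.1 and 23.8 CPM and Jup at 32.2 and 29.8 CPM came next there, and none of the 7 measured there passed the fold (3.37% of all genes higher and 7.27% lower). Cldn1 was at 99.3 and 166 CPM in dendritic or Langerhans cells, 1.67-fold higher (1.22 to 2.27), the only one of 6 past the fold (3.05% of all genes higher and 5.9% lower). Most Cldn1 UMIs lay in cells with a UMI of Cd207, the Langerhans cell gene langerin, a split chosen after its values were seen: 539 CPM in 23 WT and 739 CPM in 12 Card14KI cells, against 9.96 and 20.2 CPM in the rest. Dendritic cells also held Jup at 57.9 and 48.4 CPM and F11r at 25.8 and 20.7 CPM. Macrophages (64 and 34 cells) had Jup at 79.8 and 125 CPM and Pkp4 at 36.6 and 26.1 CPM. Neutrophils (45 and 33 cells) held only a few UMIs of any member. Dsp had 5 and 4 (63.3 and 59.4 CPM), Perp 4 and 3 (50.7 and 44.6 CPM) and F11r 4 and 0 (50.7 and 0 CPM). These lie near the floor of 3 counts, 38.0 and 44.6 CPM, and cannot be read as expression or as a difference. In B cells (40 and 23 cells) the highest member, Pkp3, had 7 and 2 UMIs (11.4 and 7.06 CPM). Melanocytes, 11 and 12 cells, had Gjc3 at 156 and 61.5 CPM (9 and 2 UMIs). Pkp4 was at 52.04 and 92.2 CPM (3 and 3 UMIs) and Tjp1 at 69.4 and 61.5 CPM (4 and 2 UMIs). All but the WT Gjc3 count lie near or below the floor of 3 counts, so the libraries cannot be compared there.

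**Figure D5:**
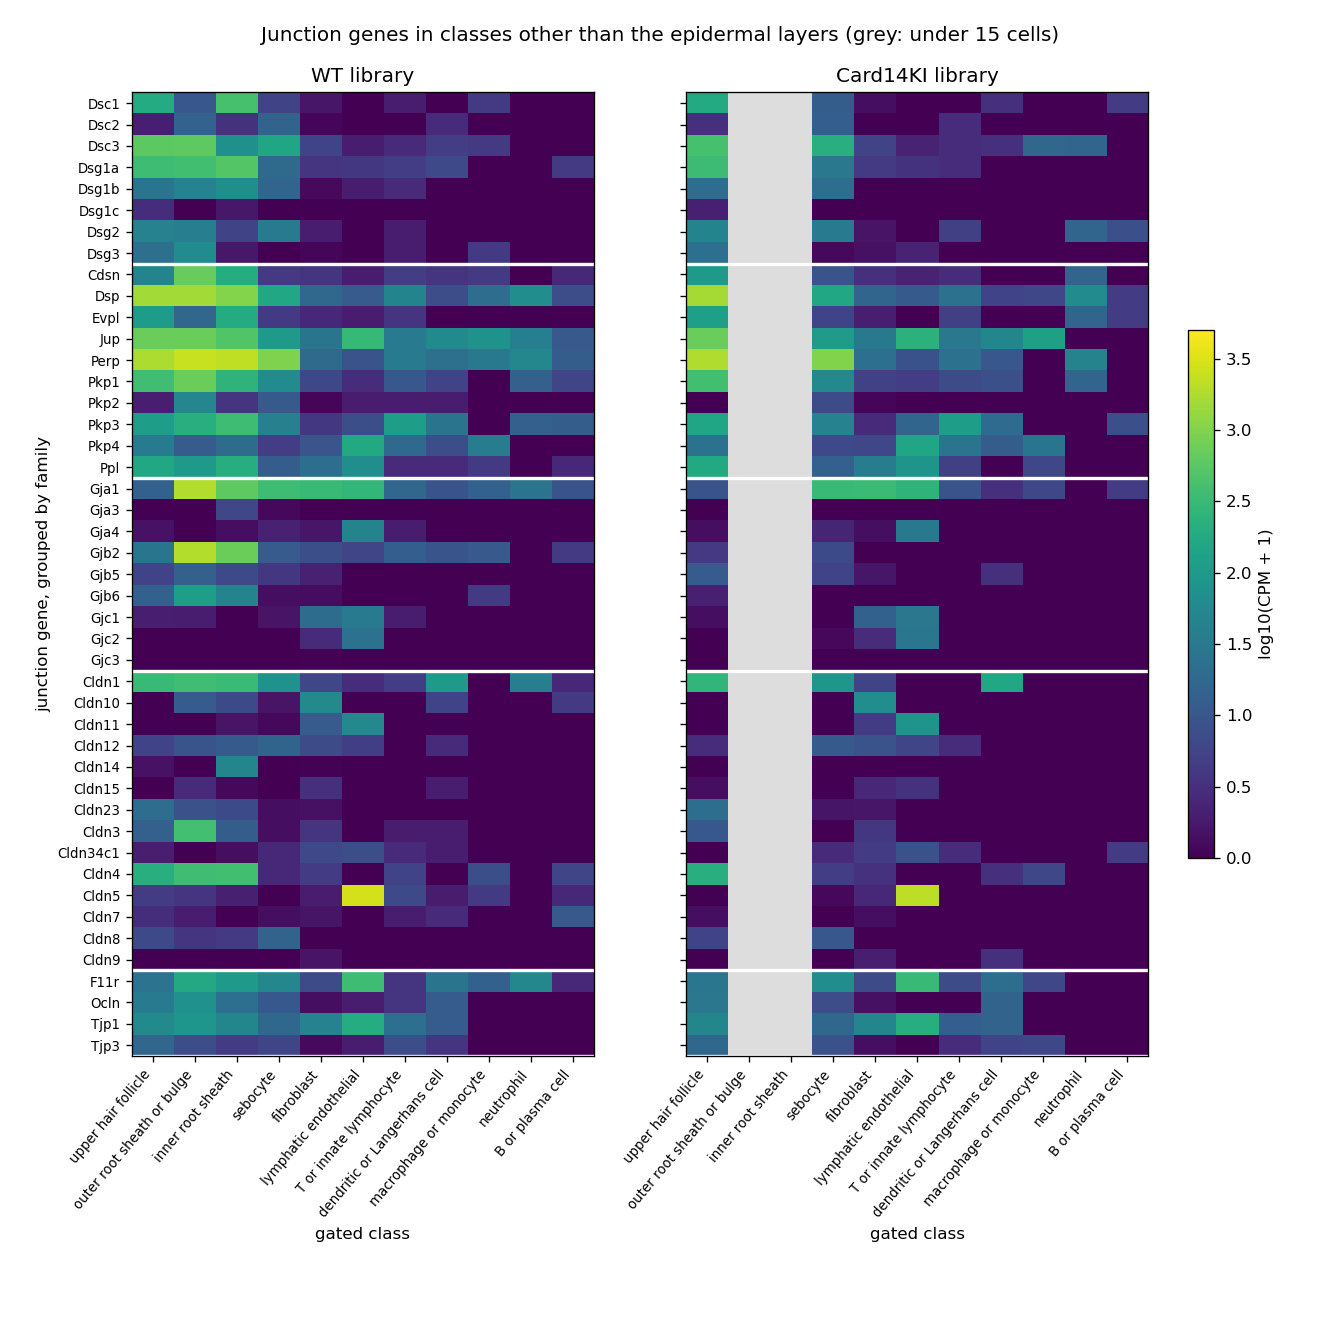
Heat maps of 45 junction genes with 20 or more UMIs in all, as log10(CPM + 1), in classes other than the epidermal layers, WT on the left and Card14KI on the right; grey columns had under 15 cells. Cldn5 stands out in lymphatic endothelial cells at 2850.1 and 2114 CPM, and the root sheath columns have WT values alone.

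Of 51 genes on lists of adherens junction, polarity, tricellular, other channel, transcription factor and desmosome-linked genes, 31 were measured in granular cells, where 9 were higher and 1 lower in Card14KI, beside the 17.4% and 4.03% of all genes given above. Nectin2, an adherens junction receptor, was at 23.03 and 51.1 CPM, 2.22-fold higher (1.64 to 3.04), Cdh1, E-cadherin, at 75.7 and 139 CPM, 1.84-fold (1.55 to 2.19), and Lsr, which marks contacts of 3 cells, at 93.3 and 159 CPM, 1.71-fold. Grhl1, a grainyhead factor known to bind desmosomal cadherin genes, was at 174 and 282 CPM, 1.63-fold (1.45 to 1.83). Trp63, the basal keratinocyte factor, was the lower one, at 21.5 and 12.9 CPM. In spinous cells 1 of 39 was higher, Nectin3, at 16.6 and 34.04 CPM, and 0 were lower, beside 7.03% and 4.27% of all genes. In the mixed basal gate 9 of 37 were higher and 8 lower, beside 6.63% and 17.9% of all genes.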

How the data were processed

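The authors deposited 1 raw count matrix per library: UMI counts per gene and barcode, not normalized, as whole numbers per the file headers. Reads had been counted on mm10 by Cell Ranger 6.0.2 (submitters' processing notes) or 5.0.0 (file headers), with the gene annotation release not given in the sources used here. All 73 members were located by gene ID in GENCODE of GRCm38. Per-sample columns of other series: none.

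Barcodes with under 500 genes or 20% or more mitochondrial UMIs were removed. Scrublet's own threshold marked 2 and 4 cells, taken as not having worked, so the 174 and 78 highest-scoring barcodes were removed (0.8% per 1000 barcodes). Both libraries were clustered together (scanpy 1.11.5, Leiden resolution 1, 1974 genes, no members). A cell took the class with the highest mean log marker level, with 3 or more markers detected and a margin of 0.3 over the next class; 379 and 196 cells stayed unassigned. Spinous and granular cells were split at a granular score of 2, with 9 WT and 15 Card14KI spinous cells and 10 and 23 granular cells within 0.25 of it. Levels have exact Poisson, ratios exact conditional binomial and shares above 0 exact Clopper-Pearson 95% intervals; a share of 0 has the limit of 3 counts. Scripts were tested on simulated data.

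Members named in each layer are those with the 30 highest mean CPM over the 3 layers plus any past the fold; in other classes, the 3 highest (for B cells, the highest). Other members were named after their values were seen, including those past the fold in other classes and Gjb6, Cldn3 and Cldn14 in follicle cells. Members, lists and rules were chosen with earlier results of these data known. The stages and the parts of the basal gate were added after the data were seen. A few members are counted but not reported here by name or drawn.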

Additional observations from a re-analysis of the deposited data

Results flagged for a closer look

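Members past the fold in opposite directions in different classes of the same pair of libraries were looked at again; none of these differences between classes was tested, since each group is 1 animal. Log2 ratios are of CPM + 1, Card14KI over WT. Pkp4 was higher in the basal gate (1.20) and in spinous cells (0.68) and lower in fibroblasts (-0.63), where it was at 8.47 and 5.14 CPM. Gjb2 was higher in granular cells (0.82) and lower in the basal gate (-7.06), the upper hair follicle (-2.78), sebocytes (-0.78) and fibroblasts (-2.97); the WT fibroblast level, 6.85 CPM, and that of sebocytes, 10.5 CPM, are of the size seen in WT T or innate lymphocytes (12.0 CPM) and cannot be read as expression. Dsc1 was higher in sebocytes (1.11), at 4.67 and 11.2 CPM, and lower in spinous cells (-0.59), at 233 and 154 CPM, a spinous call kept under 3 of 13 alternatives. Its sebocyte levels are close in size to these low WT Gjb2 levels, and the part of free RNA in them was not tested.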

How the results depend on the processing

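No paired analysis was possible because each group is 1 library with no replicate number, so leaving one out gives no comparison. The 2 granular thresholds, the 2 basal subsets, the same weights of score bins and the fold without an interval were chosen after seeing the data. Of the values recomputed under alternatives, 1513 stayed the same, 555 moved and 30 reversed; the causes were not tested.

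Counts of members higher in the basal gate (10) were 5 at 2-fold, 4 with cells thinned to 2000 UMIs, 6 with a looser gate, 1 with classes from clusters (388 WT and 132 Card14KI cells) and 3 in interfollicular cells; lower counts (5) were 2 thinned, 25 from clusters, 3 without the outer root sheath part and 1 in interfollicular cells. In spinous cells the 3 higher became 0 at 2-fold and thinned, and 1 from clusters and by score bins, and the 2 lower became 10 at a lower fold, 0 at 2-fold, and 1 when thinned, with a looser gate, with a granular threshold of 2.5 and without the top cell of each gene. In granular cells the 11 higher became 20 at the lower fold, 1 at 2-fold, 3 thinned, 5 from clusters, 6 and 7 with thresholds of 1.5 and 2.5, 4 by score bins and 5 by trimmed mean, and the 0 lower became 4 from clusters, 2 with the threshold of 2.5, and 1 with 1.5, equal weight per cell, score bins and trimmed mean. The 2 members lower in spinous than basal cells of both libraries became 1 at 2-fold and 4 with equal weight per cell or a tighter gate.

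Log2 ratios reversed with classes from clusters: in the basal gate Cldn1 (-1.80), Dsg1a (-4.81), Dsg3 (-1.92), Evpl (-0.085), Jup (-0.85), Pkp1 (-1.56), Pkp4 (-0.23), Ppl (-0.60) and Tjp3 (-0.39), and in granular cells Dsc3 (-1.66), Dsg1b (-0.20), Evpl (-0.038) and Gjb2 (-2.35). Spinous over basal steps reversed there for Cldn3 (-1.246 in Card14KI, -3.97 in WT), Dsg3 (1.45) and Pkp4 (1.84) in Card14KI and Tjp1 in WT (-0.10), as did Cldn4 in Card14KI from spinous to granular (-0.082). The Cldn3 step also reversed with doublets kept (-0.69 in Card14KI) and a looser gate (-0.30 and -0.15). Granular Gjb2 reversed when thinned (-1.31; its WT step became 0.15) and at the threshold of 2.5 (-0.69), as did Dsc3 (-0.71). Spinous Dsg3 became -0.11 with equal weight per cell. In interfollicular cells Cldn8 (0), Dsg3 (-0.23) and Pkp1 (-0.088) reversed or fell to 0.

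In granular cells the call was kept under 12 of 13 alternatives for Cldn3 (lost when thinned) and Cldn23 (lost by trimmed mean), 11 for Cldn4 and Cldn1, 10 for Ocln, 9 for Gjb2, 8 for F11r, Tjp3 and Dsg1b, and 5 for Evpl and Dsc3. In spinous cells it was 11 of 13 for Pkp4, 8 for Dsg2 and Dsg3 and 3 for Dsc1. In the basal gate it was 11 of 12 for Pkp4, Gjb2 and Gja1 (Gja1 lost without the outer root sheath part), 10 for Ppl and Dsg1a, 9 for Evpl and Gjb6, 8 for Cldn1, Dsg3 and Cldn8, 7 for Tjp3, 6 for Jup and 5 for Pkp1. Depth limits members under 20 UMIs in a class, for which no difference was detectable here.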
